A study of Mus musculus with 6 samples.

Results

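The miR-23/27/24 clusters are a pair of paralogous miRNA gene clusters of the mouse. Their guide strands, the hairpin arms that are loaded into Argonaute, were described here by the assays named miR-23a, miR-23b, miR-27a, miR-27b and miR-24. These were the rows of the Ct table whose name, without its prefix and assay number, equalled one of the 5 names, and they made up 5 of 596 miRNA assays. TaqMan RT-PCR was run on macrophages grown from bone marrow for 7 days in L929-conditioned medium, which supplies macrophage colony-stimulating factor. The donors were male mice of 6 to 8 weeks that all lacked Apoe (Apoe-/-) and all carried LysM-Cre, a recombinase expressed in myeloid cells. The 3 WT mice had wild-type Dicer alleles (LysM-Cre/Dicerwt/wt/Apoe-/-), and the 3 KO mice had floxed Dicer alleles (LysM-Cre/Dicerflox/flox/Apoe-/-), which the recombinase deletes in those cells. No assay of Dicer mRNA was on the panel, so neither the genotype nor the share of cells with a deleted gene was checked. In bulk RNA, fewer cells of a type and less RNA per cell cannot be told apart.

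Dicer cuts the precursor hairpin of a miRNA into a short duplex, from which the guide strand is kept and the passenger strand, marked by an asterisk, is mostly lost. Each cluster is transcribed as a single precursor that holds a miR-23, a miR-27 and a miR-24 hairpin. The a cluster is a target of the myeloid transcription factor PU.1. In macrophages miR-27 is known as a repressor of the cholesterol exporter Abca1 and of the nuclear receptor Pparg, miR-23 as a regulator of inflammatory signalling, and miR-24 as a repressor of the matrix protease Mmp14.

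In RefSeq (GRCm38.p6) the a cluster, with Mir23a, Mir27a and Mir24-2, lies at chr8:84208518-84208921 on the plus strand, 404 bases that overlap no other annotated gene. The b cluster, with Mir23b, Mir27b and Mir24-1, lies at chr13:63300484-63301275 on the plus strand, 792 bases inside the span of the aminopeptidase gene Aopep. The mature sequences below were matched for miR-23a, miR-27a, miR-27b and miR-24 among the 5 members, and show where the clusters differ. They are written 5′ to 3′ with the seed, bases 2 to 8, in capitals; the seed is the part that pairs with target mRNAs.
miR-23a (miR-23a-3p, chr8:84208563-84208583): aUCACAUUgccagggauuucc
miR-27a (miR-27a-3p, chr8:84208727-84208747): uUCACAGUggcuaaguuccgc
miR-27b (miR-27b-3p, chr13:63300760-63300780): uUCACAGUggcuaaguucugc
miR-24 (miR-24-3p, chr8:84208875-84208896 and chr13:63301251-63301272): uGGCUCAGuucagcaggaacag
miR-24-2* (miR-24-2-5p, chr8:84208839-84208860): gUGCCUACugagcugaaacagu
miR-24-1* (miR-24-1-5p, chr13:63301213-63301235): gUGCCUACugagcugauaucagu
miR-27a and miR-27b share their seed and differ at 1 of 21 positions, C19U, counted from the 5′ end of miR-27a. This position is the third from the 3′ end, where the reverse transcription primer of this assay type pairs. Whether either assay also reads the other paralogue was not tested. miR-24-1* and miR-24-2* share their seed too. Counted from the 5′ end without a gap, they differ at 5 of the 22 positions that both have, but both end in cagu. Whether the miR-24-2* assay also reads miR-24-1* was not tested.

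The guide miR-24 is the same in both clusters, so its assay reads the sum of 2 hairpins. Those hairpins are shown here as annotated, with the guide in capitals, because the precursors that Dicer cuts lie within them. They differ only outside the guide.
Mir24-1 (b cluster, chr13:63301208-63301275): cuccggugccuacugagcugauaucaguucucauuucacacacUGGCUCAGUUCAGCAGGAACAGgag
Mir24-2 (a cluster, chr8:84208815-84208921): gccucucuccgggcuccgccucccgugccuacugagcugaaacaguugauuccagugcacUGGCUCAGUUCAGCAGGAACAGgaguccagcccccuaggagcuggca
By assay name, the a cluster was read on the panel by miR-23a, miR-27a and the passenger strand miR-24-2*. The b cluster was read by miR-23b and miR-27b, and both clusters by miR-24. Of the 6 passenger strands of these hairpins, 1, miR-24-2*, was matched by name on the panel.

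The threshold cycle (Ct) falls by 1 for each doubling of template, and a well without amplification is listed at 40. The table has 2 blocks of rows, each with its own 5 endogenous small RNA controls, which Dicer does not make. All 5 members lie in the first block and miR-24-2* in the second. The mean control Ct of the first block was 21.1, 20.6 and 19.1 in WT replicates 1, 2 and 3 and in KO 22.8, 20.3 and 19.3 (exact permutation p = 0.8, two-sided; n = 3 per group), so KO replicate 1 had the latest controls. Relative abundance is the log2 value of the control mean minus the assay's Ct, and Ct values at or above a ceiling of 35 were set to 35. At 3 samples per group, 0.1 is the smallest p that exact permutation can reach, and precision is limited by that number.

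**Figure D1:**
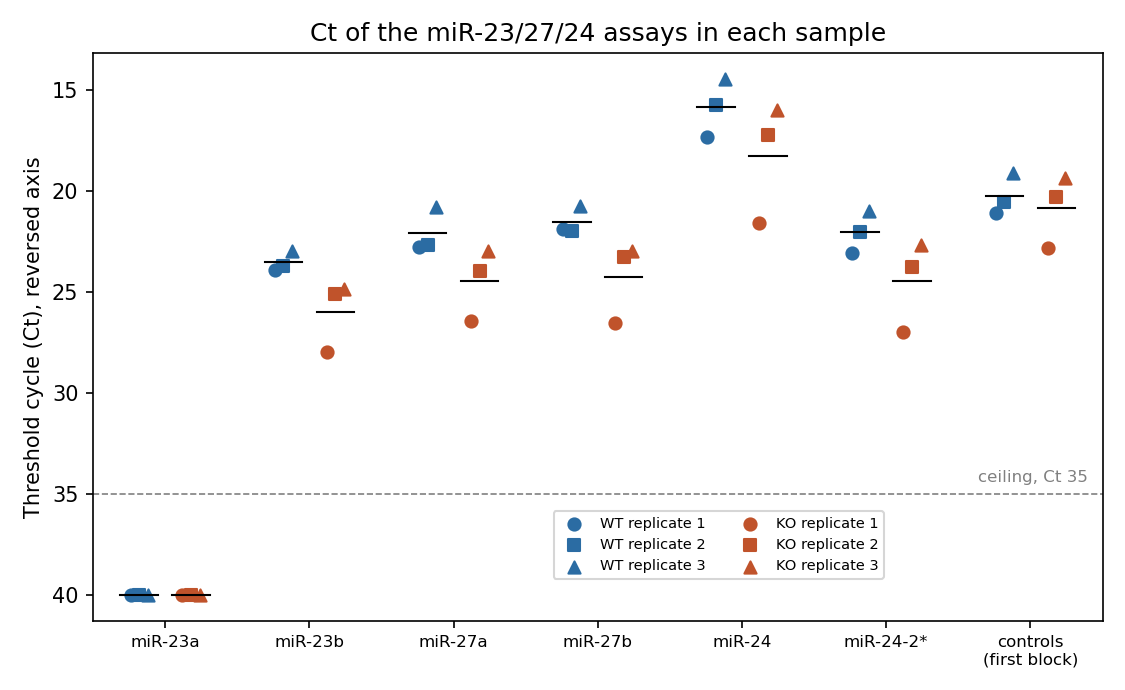
Threshold cycle (Ct, reversed axis, so that more template is higher) of the 5 guide strands, miR-24-2* and the mean of the first block's controls; each symbol is 1 sample, blue for WT and orange for KO, and black lines are group means. miR-24 had the earliest Ct, with a WT mean of 15.8, miR-23a sat at 40 in every sample, and KO replicate 1 was the latest sample of the other assays and of the controls.

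All guides except miR-23a amplified in every sample, and these 4 were less abundant in KO than in WT macrophages. By limma with Benjamini-Hochberg adjustment over 282 tested assays, miR-27b, miR-27a and miR-23b fell, by 4.41-fold, 3.50-fold and 3.70-fold, and miR-24 was 3.59-fold lower without passing the test. The passenger strand miR-24-2* fell 4.07-fold. Over all tested assays 105 were lower at an adjusted p under 0.05 (37.2%) and 1 was higher (0.355%), and the median log2 difference was -1.91 with quartiles of -2.44 and -1.004. The 4 tested members had a median of -1.86, so they moved by about as much as the panel as a whole.

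miR-27b, the b cluster's repressor of lipid genes, amplified at Ct 21.9, 22.0 and 20.8 in WT replicates 1, 2 and 3 and at 26.6, 23.3 and 22.96 in KO replicates 1, 2 and 3. Its log2 abundance relative to the controls was -0.82, -1.43 and -1.66 in the WT samples and -3.72, -2.996 and -3.62 in the KO samples. Every KO sample lay below every WT sample, by at least 1.34. The difference was -2.14 ± 0.52 on the log2 scale (SE, n = 3 per group; limma, adjusted p = 0.0312), the largest of the 4 tested guides.

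miR-27a, its paralogue in the a cluster, amplified at Ct 22.8, 22.7 and 20.8 in WT and at 26.4, 23.98 and 22.97 in KO. Its relative abundance was -1.71, -2.12 and -1.69 in the WT samples and -3.60, -3.70 and -3.64 in the KO samples. The KO samples were almost level, with an SD of 0.051 beside 0.24 in WT, and lay at least 1.48 below the WT samples. The difference was -1.81 ± 0.47 (SE, n = 3 per group; limma, adjusted p = 0.0333).

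miR-23b amplified at Ct 23.9, 23.7 and 22.9 in WT and at 27.98, 25.1 and 24.8 in KO. Its relative abundance was -2.82, -3.15 and -3.84 in the WT samples and -5.14, -4.82 and -5.51 in the KO samples. The groups did not overlap, with a gap of 0.98, and the lowest sample of each was replicate 3. The difference was -1.89 ± 0.53 (SE, n = 3 per group; limma, adjusted p = 0.0355).

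miR-24, the guide that both clusters make, amplified at Ct 17.3, 15.7 and 14.4 in WT and at 21.6, 17.2 and 15.97 in KO. Its relative abundance was 3.74, 4.81 and 4.67 in the WT samples and 1.27, 3.06 and 3.36 in the KO samples. The groups did not overlap, but the gap between the lowest WT and the highest KO sample was 0.38, the smallest of the 4 guides. KO replicate 1 was 8.81-fold below the WT mean, while KO replicates 2 and 3 were 2.54-fold and 2.06-fold below it. The difference was -1.84 ± 0.72 (SE, n = 3 per group; limma, adjusted p = 0.0748), and with the replicate number as a block its adjusted p was 0.0431. Without KO replicate 1 it was -1.19 (adjusted p = 0.111).

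miR-24-2*, the passenger strand of the a cluster's miR-24 hairpin, amplified at Ct 23.1, 22.0 and 21.0 in WT and at 26.97, 23.8 and 22.7 in KO. Its abundance relative to the second block's controls was -1.998, -2.70 and -1.97 in the WT samples and -4.83, -4.51 and -3.41 in the KO samples. The groups did not overlap, and KO replicate 3 was the nearest to WT, as it was for miR-24. The difference was -2.02 ± 0.59 (SE, n = 3 per group; limma, adjusted p = 0.0389), and without KO replicate 1 it was -1.74 (adjusted p = 0.056).

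**Figure D2:**
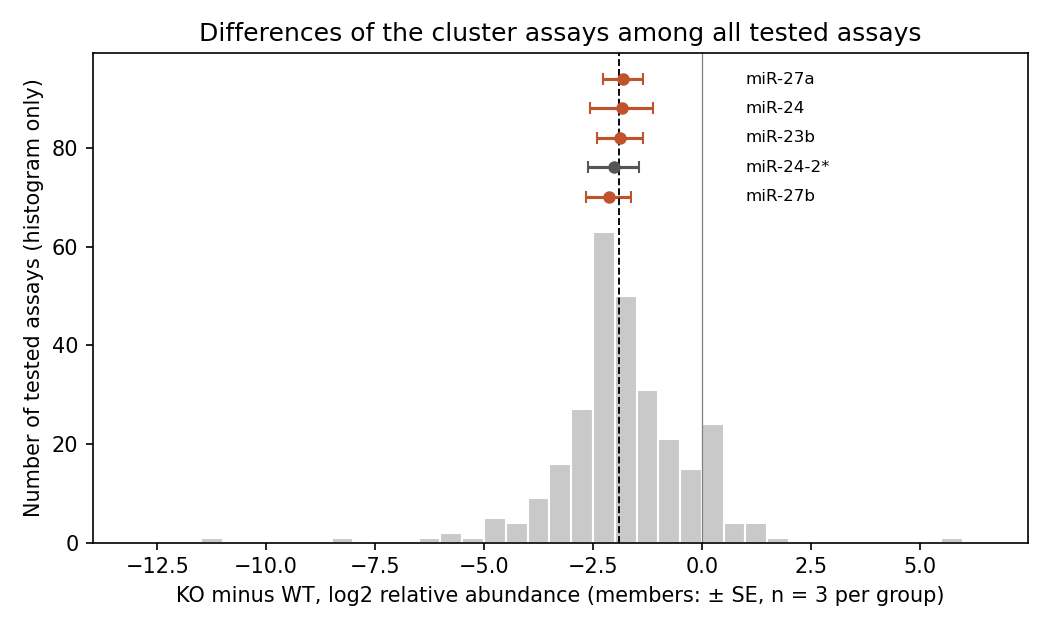
KO minus WT in log2 relative abundance: the grey histogram counts the 282 tested assays, the dashed line is their median of -1.91, and the points with bars are the 4 tested guides and miR-24-2* with SE (n = 3 per group). The points lie between -2.14 and -1.81, close to the dashed line.

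All 4 tested guides had every KO sample below every WT sample, as had 169 of the 282 tested assays (59.9%). With the replicate block 4 of the 4 passed the threshold, beside 118 of 282 assays (41.8%). The calls were less firm than the direction: when WT replicate 1, 2 or 3 was left out, 0 of the 4 guides and 2 assays of the panel were lower at the threshold, when KO replicate 2 was left out, 0 and 3, and miR-24-2* passed in none of these 4 cases. Without KO replicate 3 miR-23b no longer passed (adjusted p = 0.0626). The direction is relative to the small RNA controls. With the mean of the miRNAs detected in all samples as the reference, which removes a common shift and moves the panel's median to -0.20, the differences were 0.0012 for miR-23b, 0.045 for miR-24, 0.079 for miR-27a and -0.25 for miR-27b, and 0 of the 4 passed. Each block was set against its own mean. miR-24-2*, set against the mean of the second block, was at -1.38 under this reference (adjusted p = 0.202). That mean is made of other assays than the first block's, so this value cannot be set beside those of the guides.

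Sample by sample, the shift of the guides followed that of the panel in KO replicates 1 and 2 more closely than in KO replicate 3. Relative to the WT mean, the median of the 4 guides was -2.14 in KO replicate 1, -1.62 in KO replicate 2 and -2.02 in KO replicate 3, beside -2.29, -1.65 and -1.42 for all tested assays. miR-24 was the lowest of the guides in KO replicate 1, at -3.14, and the highest in KO replicates 2 and 3, at -1.35 and -1.04. These positions are a description of single samples and were not tested.

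**Figure D3:**
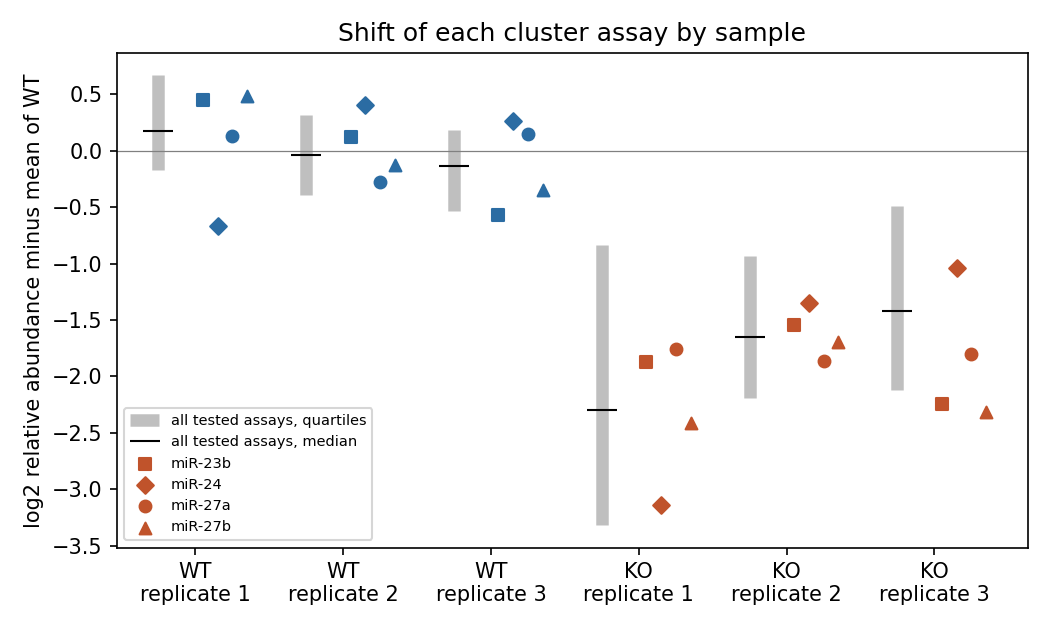
log2 relative abundance of each tested guide minus its own WT mean, by sample (blue WT, orange KO), beside the median (black line) and quartiles (grey bar) of all 282 tested assays. In KO replicate 1 miR-24 lay at -3.14 and miR-27a at -1.76, and in KO replicate 3 miR-24 lay at -1.04 and miR-27b at -2.32.

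The a and b clusters were compared through miR-27a and miR-27b within each sample. Both lie in the first block, so the controls cancel and the difference does not depend on the reference. miR-27a minus miR-27b was -0.89, -0.69 and -0.034 in the WT samples and 0.12, -0.71 and -0.019 in the KO samples, on the log2 scale. The groups overlapped: KO replicate 2 lay at the level of WT replicate 2, and replicate 3 was near 0 in both. The mean was -0.54 ± 0.45 in WT and -0.20 ± 0.44 in KO (SD, n = 3), a change of 0.33 ± 0.36 (SE; exact permutation p = 0.4, two-sided). A difference in the response of the clusters was not detectable with these samples, which does not show that they respond alike.

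This change was set beside other paralogues, taken as guide assays of 1 block with the same number and arm that differ in their letter. Of 73 such pairs 17 (23.3%) had groups that did not overlap. In the 61 other pairs measured in every well, the median size of the change was 0.37, and 36 changes were larger than that of miR-27a and miR-27b. They ran from -1.70 for miR-125a-5p minus miR-125b-5p to 1.32 for miR-99a minus miR-99b. Many pairs share an assay, as those of let-7 and miR-30 do, so they are not independent.

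**Figure D4:**
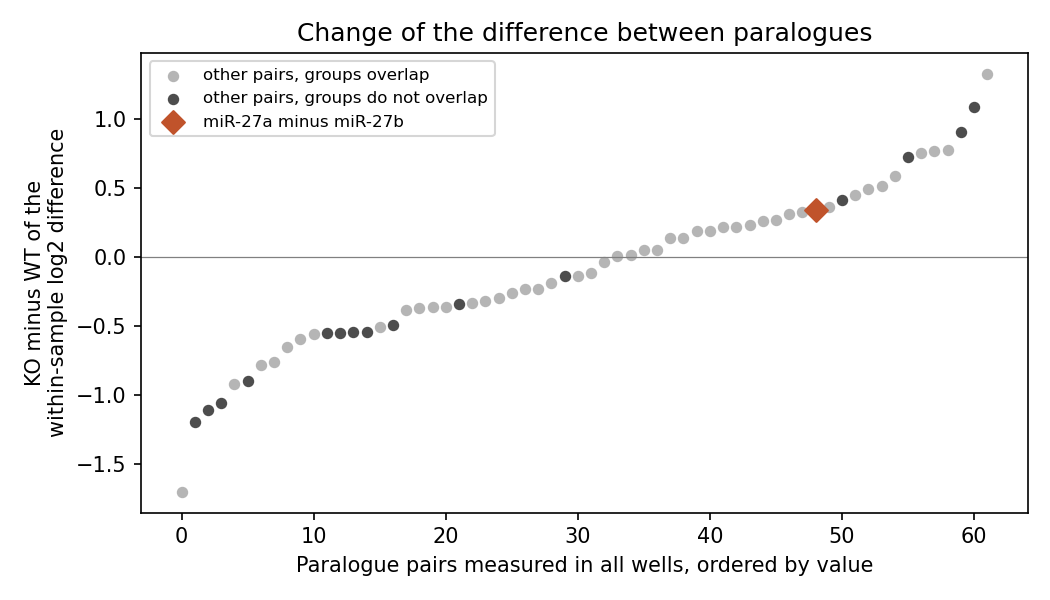
KO minus WT of the within-sample log2 difference between paralogues, for miR-27a minus miR-27b (orange diamond) and 61 other pairs measured in all wells, ordered by value; dark points are pairs whose WT and KO samples do not overlap. The diamond, at 0.33, lies inside the range of the other pairs, from -1.70 to 1.32.

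The balance of the assays was also compared, both within and between the clusters and with miR-27a minus miR-27b included. Of the 10 differences among miR-27a, miR-27b, miR-23b, miR-24 and miR-24-2*, all overlapped between KO and WT (0 of 10 did not, 0%), the changes ran from -0.30 to 0.33, and the exact permutation p values ran from 0.3 to 1, each 1 after adjustment over the 10 (smallest possible p 0.1, n = 3 per group). In the b cluster, miR-27b minus miR-23b was 1.998, 1.72 and 2.18 in the WT samples and 1.42, 1.82 and 1.89 in the KO samples, a change of -0.26 ± 0.20 (SE; exact permutation p = 0.3). The guide over its a cluster passenger, miR-24 minus miR-24-2*, was 5.74, 7.51 and 6.64 in the WT samples and 6.09, 7.57 and 6.77 in the KO samples, a change of 0.18 ± 0.67 (SE; exact permutation p = 0.7). It crosses the blocks and so rests on both sets of controls. Taken within replicate numbers it was 0.35, 0.060 and 0.13 higher in KO (SE of the paired mean 0.089; exact sign-change permutation p = 0.25, the smallest that 3 pairs allow). Within replicate numbers the exact p of the other 9 differences ran from 0.5 to 1.

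Levels of different assays can be set side by side only if the assays amplify equally well, which was not tested. With that limit, the order in WT by log2 relative abundance was miR-24 at 4.40 ± 0.58, miR-27b at -1.30 ± 0.43, miR-27a at -1.84 ± 0.24 and miR-23b at -3.27 ± 0.52 (SD, n = 3). In KO it was miR-24 at 2.56 ± 1.13, miR-27b at -3.45 ± 0.39, miR-27a at -3.65 ± 0.051 and miR-23b at -5.16 ± 0.35 (SD, n = 3). miR-27b was above miR-27a in 3 of 3 WT and 2 of 3 KO samples, and this pair of neighbours did not separate beyond its spread in KO. miR-23b was below miR-27a in all 6 samples. Among the 177 assays of the first block detected in all WT samples, miR-24 ranked 2, miR-27b 36, miR-27a 51 and miR-23b 77.

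miR-23a gave no amplification: its Ct was 40 in all 6 samples, so it was not tested. Its cluster mates miR-27a and miR-24-2* were at mean Ct values of 22.1 and 22.0 in WT. Set at the ceiling, and assuming equal amplification, miR-23a was at least 2870-fold below miR-23b in WT and at least 522-fold below it in KO. These bounds are for the group means on the log2 scale. In KO replicate 1, where miR-23b was at Ct 27.98, the bound was lower than that of the KO mean. Whether the assay failed or the miRNA was not present was not tested. A miR-23a against miR-23b comparison between the clusters could therefore not be made, and the miR-23 values here are those of the miR-23b assay alone. No mature sequence was matched for miR-23b, and whether its assay also reads miR-23a was not tested.

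The authors' deposited table of relative quantities nevertheless lists miR-23a at 1.84, 1.20 and 0.452 in WT replicates 1, 2 and 3 and at 6.75, 1.07 and 0.530 in KO. The authors' deposited table of fold changes gives it as 2.39 for KO over WT, above 1, and gives 0.278 for miR-23b, 0.297 for miR-27a, 0.235 for miR-27b, 0.326 for miR-24 and 0.262 for miR-24-2*. The miR-23a quantities equalled, within 4.34e-10, a Ct of 40 set against U6, snoRNA135 and snoRNA202 of the first block and scaled to the WT geometric mean. They thus hold the control Ct values of each sample and no miR-23a signal. Of the 110 assays of the first block at Ct 40 in all samples, 109 had the same fold of 2.39 within 1e-06 in the authors' deposited table.

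**Figure D5:**
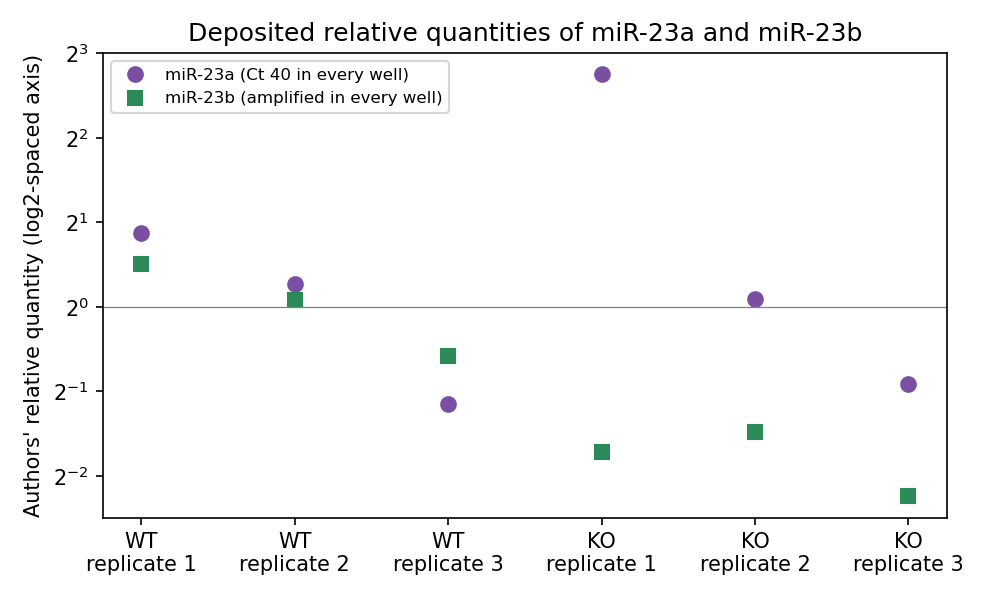
The authors' relative quantities of miR-23a (purple circles, Ct 40 in every well) and miR-23b (green squares, amplified in every well) in each sample, on a log axis where 1 is the WT geometric mean. miR-23a reaches 6.75 in KO replicate 1, the sample with the latest controls, while the highest KO value of miR-23b is 0.358.

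The assays whose profile over the 6 samples was most like the mean of the 4 guides were miR-100, miR-106b, miR-99a, miR-30e and let-7f. Likeness was the root mean square difference in log2 units after each profile was set to its WT mean, over 197 other assays measured in all 6 samples; it was 0.19, 0.19, 0.20, 0.23 and 0.23 for these, beside a median of 0.74. They share the samples and the controls of the first block with the guides, so this is a description. miR-24-2* ranked 48 at 0.48. Among the guides themselves, miR-23b and miR-27b were closest (0.27) and miR-23b and miR-24 farthest apart (0.92).

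Other miRNAs reported to repress Abca1 and cholesterol efflux, a role known for miR-27, were taken as a list. Of 13 tested, 7 fell, 0 rose and 6 did not pass, with a median of -2.13; over all tested assays 37.2% were lower and the median was -1.91. The 3 with the earliest Ct in WT did not pass: miR-19b at -0.85 ± 0.49 (SE, n = 3 per group; limma, adjusted p = 0.183), miR-20a at -1.67 ± 0.55 (adjusted p = 0.0521, with the block 0.0431) and miR-26a at -2.27 ± 0.78 (adjusted p = 0.0562). Of 17 tested miRNAs of myeloid differentiation, 8 fell, 0 rose and 9 did not pass, with a median of -1.93, beside the same 37.2% and -1.91 for the panel. Among the 3 with the earliest Ct, miR-223, a regulator of granulocytes, fell 3.75-fold (limma, adjusted p = 0.0445) and miR-21 4.64-fold (adjusted p = 0.0312), and miR-222 was at -1.59 (adjusted p = 0.109, with the block 0.0431).

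The labelled cell type was checked by marker miRNAs. The myeloid markers miR-223, miR-142-3p and miR-142-5p were below the ceiling in all 6 samples, with miR-223 at mean Ct 15.6 in WT. Liver miR-122 and muscle miR-1 were at Ct 40 throughout, muscle miR-133a was at 31.96 in WT replicate 1, 34.42 in KO replicate 1 and 40 in the other samples, and erythroid miR-451 was between 33.0 and 40. Markers of stromal cells, which also express these clusters, were present: 4 of 6 were below the ceiling in every sample. The log2 of their summed relative abundance, without wells at the ceiling, was -0.70, -1.30 and -7.61 in WT replicates 1, 2 and 3 and -4.36, -4.32 and -3.34 in KO. The sums of the other markers below were formed in the same way. WT replicate 3 was 121-fold below WT replicate 1 in this sum, while miR-27a was at -1.69 and -1.71 in these 2 samples and miR-24 at 4.67 and 3.74. miR-23b and miR-27b were lower in WT replicate 3, at -3.84 and -1.66, than in WT replicate 1, at -2.82 and -0.82, and the part of stromal cells in these values was not tested. The endothelial markers miR-126-3p and miR-126-5p had 1 of 2 below the ceiling in every sample, with a summed level from -7.06 to -6.23 in WT and from -11.1 to -7.24 in KO. The lymphocyte markers miR-150 and miR-181a were both below the ceiling in every sample, with a summed level from -3.02 to -2.38 in WT and from -5.12 to -4.01 in KO. miR-181a was the more abundant of the pair in every sample. miR-150 alone overlapped between the groups, at -4.88, -8.03 and -7.14 in WT and -7.54, -8.87 and -7.22 in KO. The epithelial miR-200 markers had 3 of 5, with sums from -3.13 to -2.95 in WT and from -5.53 to -4.24 in KO. The endothelial, lymphocyte and epithelial sums were lower in every KO sample than in every WT sample. The endothelial sum of KO replicate 3, at -7.24, was close to the -7.06 of WT replicates 1 and 3. The stromal sum of WT replicate 3 lay below those of all KO samples. The part of these cell types in the guides' values was not tested. Of 10 tested assays of the endothelial and stromal list 3 fell, 0 rose and 7 did not pass, with a median of -1.19, beside 37.2% lower and a median of -1.91 over all tested assays. miR-100 fell 4.11-fold (limma, adjusted p = 0.0312) and miR-10a 4.89-fold (adjusted p = 0.034, with the block 0.0511), and miR-145 was at -0.64 ± 1.83 (SE; adjusted p = 0.804).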

How the data were processed

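Per the labels' protocols, RNA from the mirVana kit was turned into cDNA with TaqMan MicroRNA reagents and amplified before the PCR with TaqMan PreAmp reagents; instrument and software are not given in the sources used here. All tests used the deposited Ct scores. The authors' relative quantities, a ratio scaled to WT, and their fold of KO over WT were deposited as further tables.

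Relative abundance was the mean Ct of the 5 controls of the same block and sample minus the assay's Ct, capped at 35. An assay was tested if below 35 in all samples of at least 1 group (282 of 596). The test was limma 3.58.1 (R 4.3.3; lmFit and eBayes, two-sided) on genotype alone, adjusted by Benjamini-Hochberg over every tested assay at a threshold of 0.05; the fit was tested on simulated data. Differences between assays were compared by exact permutation over samples (Python 3.11.15, scipy 1.17.1).

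Groups share replicate numbers in the labels. Deviations from the group means correlated across assays at 0.23, 0.28 and 0.27 for equal numbers and from -0.28 to 0.01 for unlike ones. Each assay's deviations cancel within a group, so positive values for equal numbers force lower ones for unlike numbers. The contrast is therefore not independent support for pairing. On the basis of these same data, replicate numbers were treated as pairs outside the main test. No label states a shared litter or day. The block is given where it changes a call.

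Named were the members, the passenger strands of their hairpins, the 5 assays of most like profile, the markers, the extreme paralogue pairs and, of each list, the 3 tested assays with the earliest Ct in WT. The members and lists were chosen with earlier results of these data known. Alternatives concerned the reference, the ceiling, the filter, the pairing, each sample left out and the authors' quantities.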

Additional observations from a re-analysis of the deposited data

How the results depend on the processing

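Against 105 lower assays and 3 lower guides of the clusters, there were 2 and 0 without a reference, 2 and 0 with the global mean as reference and 2 and 0 without a filter on assays. With 1 sample left out there were from 2 to 112 lower assays and from 0 to 3 lower guides. The other alternatives, with U6 alone, U6 with both snoRNAs, Ct kept up to 40, a ceiling of 32, detection in all 6 samples, the replicate block or the authors' quantities, gave from 79 to 118 lower assays and 3 or 4 lower guides; the block gave 118 and 4, and changed the call of miR-24 among the guides. The median of the panel was -2.02 with U6 alone, -1.85 with U6 and both snoRNAs, -2.45 without a reference and -0.20 with the global mean. Under the global mean miR-23b was at 0.0012, miR-24 at 0.045 and miR-27a at 0.079, and miR-27b at -0.25; miR-27b was negative under all 16 alternatives, and the other guides under the remaining 15. With U6 alone miR-23b did not pass (adjusted p = 0.0554) and miR-24 did (0.0453). The cause was not tested, except that fewer samples and more assays tested follow from the alternatives themselves. miR-27a minus miR-27b changed by 0.33 under each reference, ceiling and filter and with the replicate block. This holds by arithmetic, since both assays lie in the first block and below the ceilings, and is not a separate check. With 1 sample left out the change was 0.16 to 0.59. The paired form of the other differences among guides and miR-24-2*, chosen after seeing the data, gave exact p values from 0.25 to 1. For miR-23a minus miR-23b no alternative gave a value, because miR-23a did not amplify. Precision is limited by the 3 samples per group, and wells near Ct 35 by low template; the 4 tested guides lay between Ct 14.4 and 27.98.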
